A study of Mus musculus with 9 samples.

Results

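The purinergic genes described here were the receptors P2ry6, P2ry10, P2ry13, P2ry14, P2rx4, P2rx7, Adora2a and Adora2b and the ectonucleotidases Entpd1 and Nt5e. These 10 genes were taken by symbol from 24054 genes in the deposited tables, and all 10 were among the 14452 genes tested, those counted at least 1 time per library on average. They were measured by mRNA sequencing in 9 libraries of sorted splenic dendritic cells (DCs) from C57BL/6 mice. All mice were Clec9a-Cre/Cre Rosa-tdTomato/tdTomato, so that the fluorescent protein TOMATO (TOM) marks cells whose own history, or that of their precursors, includes Clec9a expression, as it does for conventional DCs (cDCs). The 3 groups were TOM+ cDC2 from postnatal day 8, TOM- DC2 from postnatal day 8 and TOM+ cDC2 from adult mice, with 3 libraries each. Adult replicate 1 came from mice of 9 weeks, and adult replicates 2 and 3 from mice of 8 weeks. All cells were sorted as live, single, autofluorescence-negative MHCII+ CD11c+ CD11b+ cells and then by TOM. Young spleens were pooled before sorting, per the study's methods, and no heterozygous or Cre-negative animals were included. The study describes the libraries as biological replicates, and the sources used here do not say which mice or pools each came from, so p-values measure the spread between these libraries.

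Extracellular nucleotides act on P2X and P2Y receptors. P2X receptors are ion channels opened by ATP, and P2Y receptors are coupled to G proteins and sense ATP, ADP, UDP or UDP-sugars. Ectonucleotidases end these signals: CD39 (Entpd1) converts ATP and ADP to AMP, and CD73 (Nt5e) converts AMP to adenosine. Adenosine then acts on its own receptors, of which those encoded by Adora2a and Adora2b raise cAMP in the cell. In DCs this system is known as a danger sense for ATP and as a brake through adenosine.

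Library totals ranged from 12783252 to 22809401 reads counted in genes. All 10 markers of cDC2 in the list used here had a mean of at least 1 TPM (transcript abundance scaled for gene length and library size) in every group. Among them Itgax, H2-Ab1 and Itgam encode proteins used for the sort. In each group 6 or 7 of 9 macrophage markers and 4 of 6 cDC1 markers also reached 1 TPM, so this bar does not establish identity. Transcripts of other cell types were present as well. Summed erythroid markers reached 643 TPM in young TOM- replicate 1 and stayed at or below 40.1 TPM in the young TOM+ libraries. Adult libraries also differed from all young ones in the share of multimapping reads, which was 10.4 to 10.8% in adults and 12.7 to 13.4% in the young. Age and such library-wide differences cannot be told apart here.

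Positions are those of the GENCODE M21 annotation of GRCm38 (mm10). P2ry14 (chr3:59113855-59153618, minus strand) and P2ry13 (chr3:59207892-59210882, minus strand) both lie inside the introns of Med12l, which is read from the opposite strand and shares no exon bases with either. P2rx7 (chr5:122643911-122691432) and P2rx4 (chr5:122707544-122729738) are neighbours on the plus strand, 16.1 kb apart. P2ry6 is at chr7:100937630-100974649 (minus), Nt5e at chr9:88327197-88372092 (plus) and Entpd1 at chr19:40612366-40741602 (plus). Adora2a is at chr10:75316877-75334784 (plus) and Adora2b at chr11:62248984-62266453 (plus). P2ry10 is at chrX:107088492-107104974 (plus), 44.0 kb from its paralogue P2ry10b.

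RefSeq promoter windows of GRCm38.p6, from 250 bases before to 50 bases after each start site, were held for 8 of the 10 genes, with 14 windows in all. The window of the most upstream of 4 P2ry14 starts (chr3:59153443-59153742, minus) and that of P2ry13 (chr3:59210833-59211132, minus) are shown because these neighbouring genes were both higher in young cells. That of Adora2b (chr11:62248734-62249033, plus) is shown as a contrast in base composition. Capitals mark CpG dinucleotides in these first sequences.
P2ry14: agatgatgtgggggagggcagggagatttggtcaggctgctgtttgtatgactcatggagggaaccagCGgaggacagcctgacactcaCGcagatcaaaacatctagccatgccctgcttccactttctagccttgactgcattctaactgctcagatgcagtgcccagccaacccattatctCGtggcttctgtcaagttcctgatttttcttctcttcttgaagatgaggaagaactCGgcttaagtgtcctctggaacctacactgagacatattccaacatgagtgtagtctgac
P2ry13: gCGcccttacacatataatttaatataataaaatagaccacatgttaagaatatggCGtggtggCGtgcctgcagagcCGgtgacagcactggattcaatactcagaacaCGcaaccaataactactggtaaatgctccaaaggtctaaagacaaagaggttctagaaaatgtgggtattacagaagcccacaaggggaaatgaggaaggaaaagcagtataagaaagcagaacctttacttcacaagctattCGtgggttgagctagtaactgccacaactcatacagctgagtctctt
Adora2b: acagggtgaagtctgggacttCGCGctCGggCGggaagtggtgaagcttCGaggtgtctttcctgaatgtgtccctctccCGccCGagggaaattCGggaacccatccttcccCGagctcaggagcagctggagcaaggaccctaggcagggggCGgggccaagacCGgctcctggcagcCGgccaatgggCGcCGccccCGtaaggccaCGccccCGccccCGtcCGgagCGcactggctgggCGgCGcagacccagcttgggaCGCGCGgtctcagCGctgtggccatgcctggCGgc

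The P2ry14 window shown held 4 CpGs, the other 3 windows of that gene 1, 4 and 3, and the P2ry13 window 6, against a median of 7 over all 32851 windows. The Adora2b window held 27, and 15.5% of all windows held as many. Of 3 motifs searched on both strands, the core of the interferon-stimulated response element and the cAMP response element TGACGTCA matched none of the 14 windows. They matched 3.44% and 1.79% of all windows. The PU.1 core GAGGAAGT matched 3.2% of all windows and 2 of the 14, at a downstream start of P2ry10 (chrX:107089083-107089382, plus) and a downstream start of P2rx7 (chr5:122650133-122650432, plus). No motif overlapped another. In these windows, shown because they alone among the 14 held a match, capitals mark the match, which lies on the opposite strand and so reads as the reverse complement.
P2ry10: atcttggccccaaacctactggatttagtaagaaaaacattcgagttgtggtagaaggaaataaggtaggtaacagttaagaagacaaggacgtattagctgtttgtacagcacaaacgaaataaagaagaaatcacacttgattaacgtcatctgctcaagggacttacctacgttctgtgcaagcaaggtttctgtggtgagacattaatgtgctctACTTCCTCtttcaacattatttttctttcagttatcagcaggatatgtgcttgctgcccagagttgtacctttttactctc
P2rx7: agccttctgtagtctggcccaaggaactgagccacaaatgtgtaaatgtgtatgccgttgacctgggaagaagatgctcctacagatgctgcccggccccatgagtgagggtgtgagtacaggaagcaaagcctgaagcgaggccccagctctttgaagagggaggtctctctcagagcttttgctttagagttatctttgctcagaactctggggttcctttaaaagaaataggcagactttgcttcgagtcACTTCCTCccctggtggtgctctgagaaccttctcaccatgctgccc

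The order of transcript levels, on the TPM scale, which is corrected for length, was similar in the groups at its top. P2ry10 was the most abundant member in every group, with means of 167 ± 15.9, 189 ± 6.90 and 303 ± 81.7 TPM in young TOM+, young TOM- and adult cells (SD, n = 3). P2ry6, P2rx4 and Entpd1 followed, and in young cells the ranges of P2ry6 and P2rx4 overlapped. In adults P2rx4 stood at 90.6 ± 12.05 TPM and Entpd1 at 45.8 ± 6.00 TPM, above P2ry6. Adora2b ranked above Adora2a in both young groups, and in adults Adora2a stood at 17.1 ± 1.78 TPM against 5.18 ± 0.978 TPM for Adora2b. Nt5e was last in all groups.

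**Figure D1:**
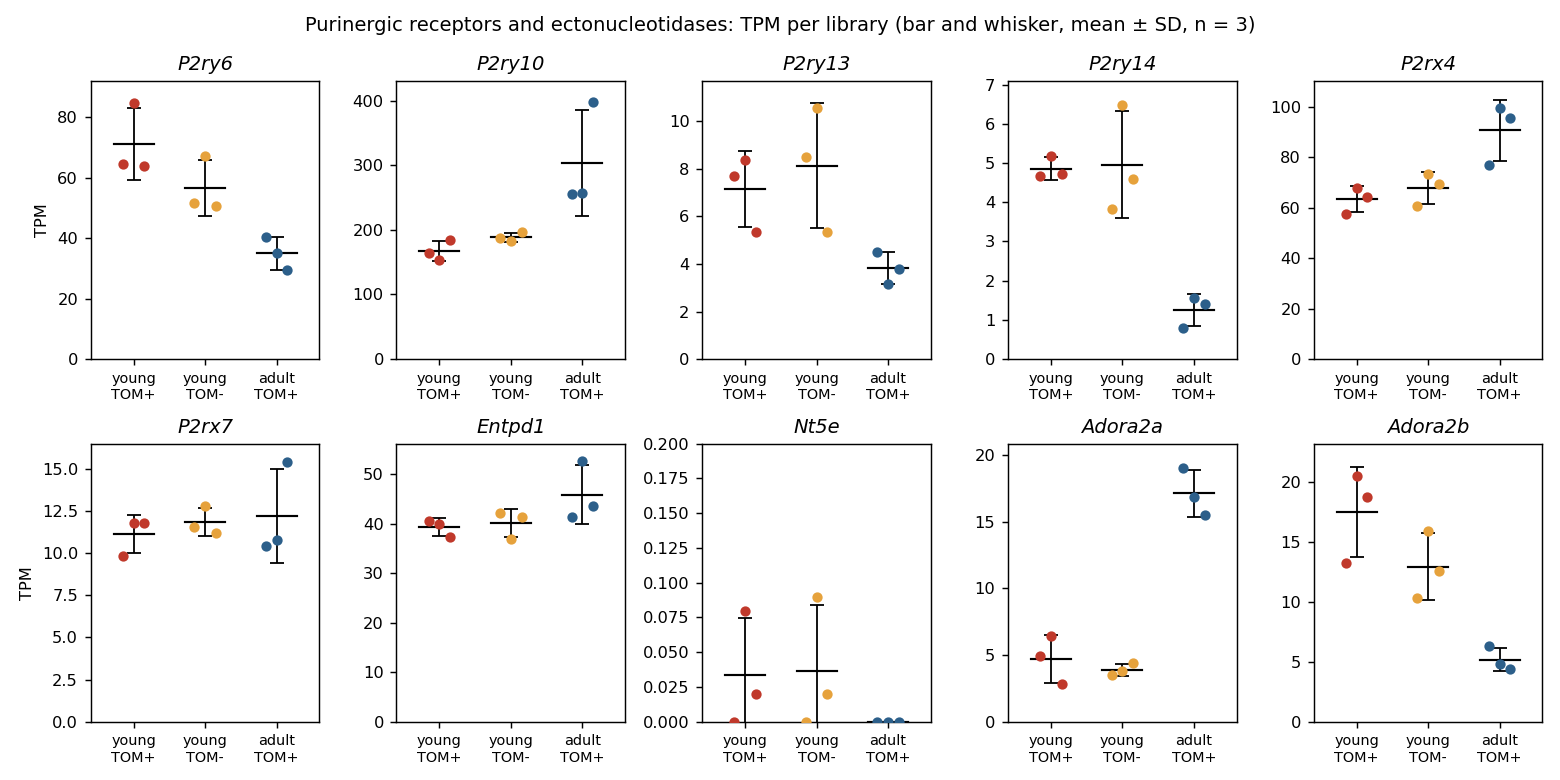
TPM of the 10 genes in each library, as points, by group; horizontal bars are means and whiskers are SD (n = 3, cut at 0 for Nt5e), and each panel has its own linear axis from 0. Adora2a is higher in the 3 adult libraries than in all 6 young ones, and P2ry14 and Adora2b are lower, while the groups overlap for P2rx7.

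The first question was how these genes differ between neonatal and adult TOM+ cDC2. Of the 10 genes, 8 passed an adjusted p of 0.05 (edgeR quasi-likelihood test with Benjamini-Hochberg adjustment over all genes), 4 higher and 4 lower in young cells. For comparison, 40.6% of all genes tested passed, 21% as higher and 19.5% as lower. Counting only those that also changed by more than 1 on the log2 scale, called below, there were 3 members, Adora2a, P2ry14 and Adora2b, with 12.8% of all genes called. The young TOM+ and adult libraries did not overlap in normalised counts for 8 members, against 51.1% of all genes. Over the 9 members above the count floor, the median size of the log2 difference was 0.911, against 0.428 over all genes tested, to which no floor was applied.

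Among the P2Y receptors, P2ry14, the receptor for UDP-glucose and related sugars, differed most. Its level was 4.67, 5.19 and 4.72 TPM in young TOM+ cDC2, 3.83, 6.47 and 4.58 TPM in young TOM- DC2 and 0.79, 1.55 and 1.41 TPM in adults. All 6 young libraries lay above all 3 adult ones, and the young groups overlapped. Young TOM+ cDC2 held 3.63-fold more (log2 difference 1.86 ± 0.31 SE, adjusted p = 0.00043). The adult values rest on 10 to 23 counts a library.

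P2ry13, a Gi-coupled ADP receptor, was at 7.71, 8.38 and 5.34 TPM in young TOM+, 8.51, 10.56 and 5.36 TPM in young TOM- and 4.50, 3.16 and 3.78 TPM in adult cells. The lowest library of each young group, which carry the same number in the deposit, came near the highest adult one without overlap. The difference was 0.78 ± 0.26 SE on the log2 scale (adjusted p = 0.0296). It no longer passed without any one of 4 libraries, namely young TOM+ replicate 1 or 2 or adult replicate 2 or 3, with adjusted p from 0.0565 to 0.106.

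P2ry6, the UDP receptor, was at 64.59, 84.86 and 64.01 TPM in young TOM+, 51.70, 67.34 and 50.59 TPM in young TOM- and 40.31, 35.21 and 29.41 TPM in adult cells. Levels fell in the order young TOM+, young TOM-, adult, with overlap between the young groups. It was 1.88-fold higher in young TOM+ than in adult cDC2 (log2 difference 0.91 ± 0.17 SE, adjusted p = 0.00127).

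P2ry10 is named as a P2Y receptor but is known to respond to lysophosphatidylserine, and it ran the other way. It was at 163.94, 152.94 and 184.26 TPM in young TOM+, 186.99, 182.91 and 196.37 TPM in young TOM- and 255.30, 256.88 and 397.65 TPM in adult cells. Adult replicate 3 stood above the others, and no young library reached the adult range. The gene was 1.96-fold lower in young TOM+ cDC2 (log2 difference -0.97 ± 0.14 SE, adjusted p = 0.000209). Its paralogue P2ry10b, listed under an older symbol in the files, also fell, by 0.63 on the log2 scale (adjusted p = 0.0174), and reads of near-identical stretches may be split between the 2 genes. Without adult replicate 1, P2ry6 and P2ry10 moved beyond the fold threshold, at 1.03 and -1.07, and 5 members were called.

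B cells express P2ry10 strongly, so their markers are given beside it. The 8 listed B cell markers summed to 61.8 to 71.8 TPM in young TOM+, 77.4 to 89.7 TPM in young TOM- and 45.3 to 58.4 TPM in adult libraries. Of the 7 tested, 4 were lower and 1 higher in young TOM+ than in adult cells. The part of such cells in the P2ry10 values was not tested. In bulk libraries fewer cells of a type and less RNA per cell cannot be told apart.

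**Figure D2:**
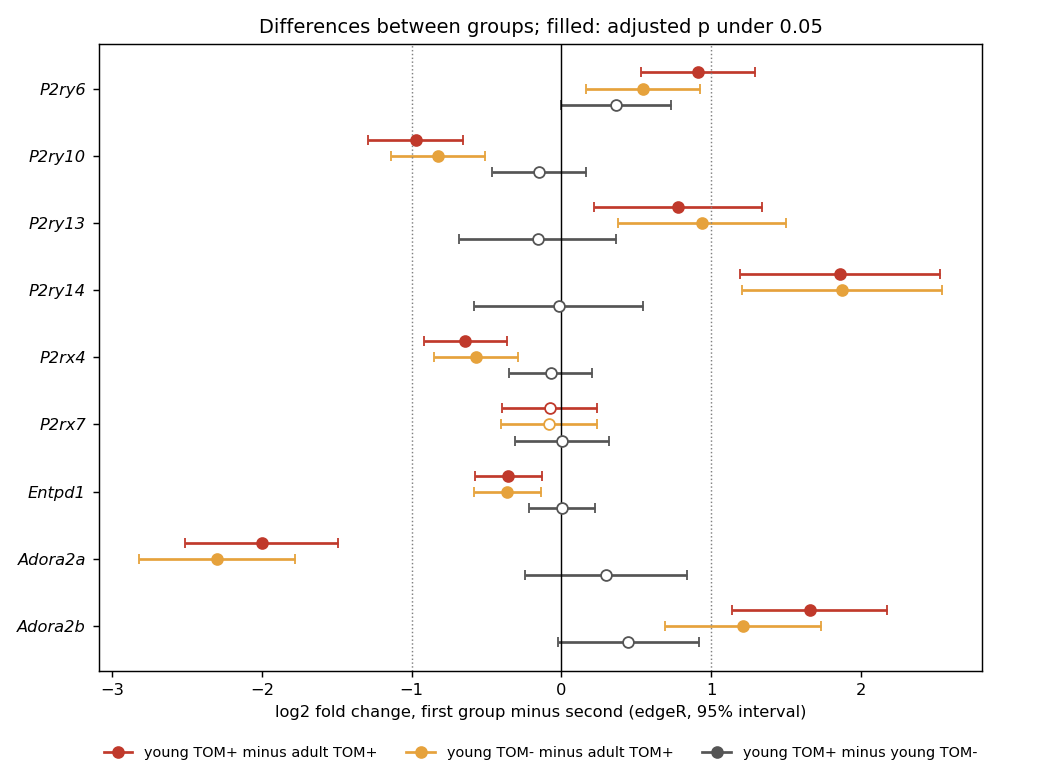
Log2 fold change (edgeR) of each gene above the count floor in 3 comparisons, with 95% intervals; filled points passed an adjusted p of 0.05 and dotted lines mark a change of 1. Adora2a lies at -2.00 and -2.30 against adults, P2ry14 at 1.86 and 1.88 and Adora2b at 1.66 and 1.21, while all intervals for young TOM+ against young TOM- cells include 0.

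The ATP-gated channels P2rx4 and P2rx7, encoded side by side, gave unlike values. P2rx4, a channel sensitive to low ATP and found largely in lysosomes, was at 57.62, 67.94 and 64.39 TPM in young TOM+, 60.61, 73.31 and 69.41 TPM in young TOM- and 76.91, 99.50 and 95.47 TPM in adult cells. The adult libraries were all above the young ones, the lowest by a small step. The gene was lower in young TOM+ cells by 0.64 ± 0.13 SE on the log2 scale (adjusted p = 0.00172). P2rx7, which needs high ATP and is known for activating the NLRP3 inflammasome, was at 9.83, 11.77 and 11.78 TPM in young TOM+, 11.53, 12.79 and 11.22 TPM in young TOM- and 10.41, 10.80 and 15.40 TPM in adult cells. These groups overlapped, and the log2 difference between young TOM+ and adult cells was -0.08 with a 95% interval of -0.40 to 0.24 (adjusted p = 0.71).

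The ratio within each library addressed whether the balance of the channels moved. The log2 ratio of P2rx7 to P2rx4 TPM was -2.51 ± 0.053 in young TOM+, -2.51 ± 0.118 in young TOM- and -2.91 ± 0.286 in adult libraries (SD, n = 3). The young groups differed from adults by 0.397 and 0.393, p = 0.1 in each case by exact permutation, two-sided, which is the smallest p for 3 against 3 libraries. No ratio of Entpd1 to Nt5e is given, since Nt5e was below 1 TPM throughout.

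Of the enzymes, Entpd1 (CD39) was well expressed and Nt5e (CD73) did not exceed a floor of 3 counts in any library. Entpd1 was at 40.56, 39.95 and 37.19 TPM in young TOM+, 42.03, 36.86 and 41.34 TPM in young TOM- and 41.28, 52.64 and 43.62 TPM in adult cells. On the TPM scale adult replicate 1 lay just above the young TOM+ libraries and within the range of the young TOM- libraries. The test gave a small decrease in young TOM+ cells (log2 difference -0.35 ± 0.10 SE, adjusted p = 0.0153), which did not pass without adult replicate 2 (-0.23, adjusted p = 0.0615) or by limma on log2(TPM + 1) (-0.21, adjusted p = 0.117). Nt5e had 0, 3 and 1 counts in young TOM+, 1, 3 and 2 in young TOM- and 0 in each adult library, so that no fold change is given.

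The adenosine receptors moved in opposite directions. Adora2a was at 4.94, 6.41 and 2.80 TPM in young TOM+, 3.52, 3.78 and 4.37 TPM in young TOM- and 19.04, 16.83 and 15.52 TPM in adult cells. The lowest adult library was above the highest young one by more than the whole spread of either young group. Adora2a was 4.005-fold lower in young TOM+ than in adult cDC2 (log2 difference -2.00 ± 0.24 SE, adjusted p = 3.55e-05).

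Adora2b, the receptor that needs more adenosine, was at 13.25, 20.47 and 18.72 TPM in young TOM+, 10.35, 15.92 and 12.56 TPM in young TOM- and 6.28, 4.85 and 4.41 TPM in adult cells. Every young library was above every adult one. Adora2b was 3.16-fold higher in young TOM+ than in adult cDC2 (log2 difference 1.66 ± 0.24 SE, adjusted p = 0.000157). Put as a share of the summed Adora2a and Adora2b TPM, a measure chosen after the values were seen and given without a test, Adora2a made up 13.01 to 27.2% in young TOM+, 19.2 to 25.8% in young TOM- and 75.2 to 77.9% in adult libraries.

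Adora3, the Gi-coupled adenosine receptor, is not among the 10 genes but is on the list of other adenosine receptors. It was at 9.84, 9.10 and 8.81 TPM in young TOM+, 10.71, 9.72 and 7.59 TPM in young TOM- and 0.76, 0.97 and 0.97 TPM in adult cells, 11.3-fold higher in young TOM+ (log2 difference 3.49 ± 0.20 SE, adjusted p = 2.25e-07). In the annotation 20.9% of its exon bases are shared with Tmigd3 on the same strand, so part of its reads may be split with that gene. Adora1, the other member of the list, was not among the genes tested.

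**Figure D3:**
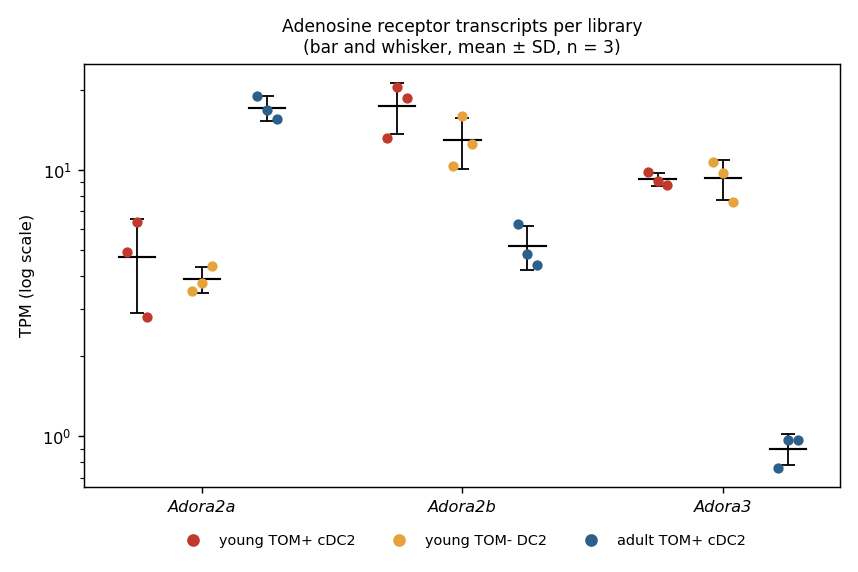
TPM of Adora2a, Adora2b and Adora3 in each library on a log axis, coloured by group, with means and SD (n = 3). Adult libraries hold 15.52 to 19.04 TPM of Adora2a and at most 0.97 TPM of Adora3, whereas young libraries hold at most 6.41 TPM of Adora2a and at least 7.59 TPM of Adora3.

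P2ry13 and P2ry14 sit among related receptor genes, and the other genes of that stretch were examined as neighbours. Along chromosome 3, Gpr171, P2ry14, P2ry13 and P2ry12 lie in that order, all within Med12l. P2ry12, an ADP receptor like P2ry13, was at 6.10, 6.54 and 4.58 TPM in young TOM+, 6.65, 6.34 and 3.84 TPM in young TOM- and 1.47, 1.06 and 1.46 TPM in adult cells (young TOM+ against adult, log2 difference 2.02 ± 0.25 SE, adjusted p = 5.97e-05). Gpr171, another G protein-coupled receptor, averaged 59.2, 68.1 and 17.6 TPM in the same order of groups (log2 difference 1.64 ± 0.32 SE, adjusted p = 0.00147). Both were called as higher in young cells. Med12l itself rose too (2.23 ± 0.42 SE, adjusted p = 0.0012) but on 4 to 8 counts in adult libraries. P2ry12 shares 9 exon bases with Med12l, and since counting ignored strand, reads from introns or antisense transcripts of the locus cannot be assigned.

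**Figure D4:**
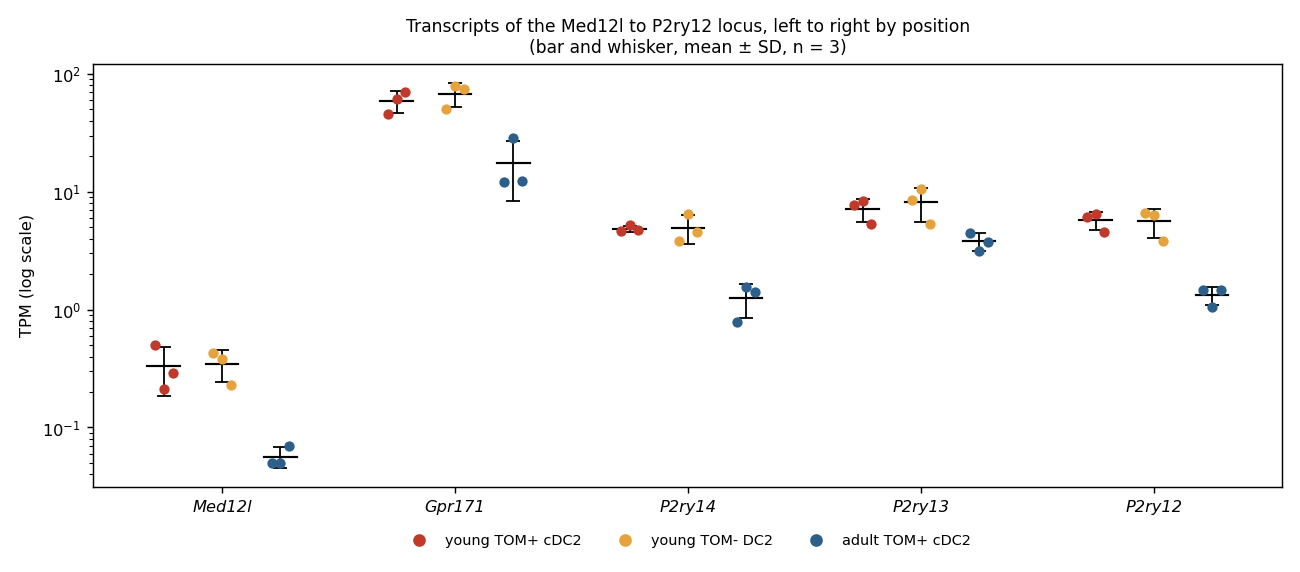
TPM of the tested genes of the chromosome 3 locus in each library on a log axis, ordered by position and coloured by group, with means and SD (n = 3). For each of the 5 genes all adult libraries lie below all young libraries. On the log axis the margin is smallest for P2ry13 (highest adult 4.50, lowest young 5.34 TPM).

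Macrophages and related cells are known for several of these receptors, so their markers are given beside the values. The 9 listed macrophage markers summed to 326 to 356 TPM in young TOM+, 414 to 460 TPM in young TOM- and 255 to 312 TPM in adult libraries. Emr1 alone averaged 188, 207 and 173 TPM. The 6 monocyte markers summed to 304 to 335, 249 to 292 and 222 to 272 TPM. Of these sums Csf1r alone averaged 241, 206 and 169 TPM. Csf1r and Ccr2 are also on the list of ESAM-low cDC2 markers, so the sums are not specific to monocytes. Of the 6, 3 passed as higher and 1 as lower in young TOM+ than in adult cells. Cd14 averaged 30.2, 33.0 and 52.2 TPM. Platelet markers, relevant to P2ry12, stayed at or below 6.2 TPM in all libraries. All 4 listed markers of ESAM-high cDC2, the subset that depends on Notch signalling in the adult spleen, were lower in young TOM+ cells. Esam was lower by 2.21 on the log2 scale (adjusted p = 7.16e-06). Of the 6 listed markers of ESAM-low cDC2, 3 passed as higher and 2 as lower in young TOM+ than in adult cells. The part of these cells or subsets in the differences was not tested.

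The second question was whether the lineage mark separated the receptors within young spleens. Without pairing of the libraries, 0 of the 10 genes passed in young TOM+ against young TOM- cells by edgeR, with 0 at an unadjusted p under 0.05 (9.38% of all genes) and 0 by DESeq2, against 1.6% of all genes passing and 1.18% called. The members with the smallest p were Adora2b (log2 difference 0.45, 95% interval -0.02 to 0.92, adjusted p = 0.564) and P2ry6 (0.37, -0.00 to 0.74, adjusted p = 0.538). For P2ry14, the log2 difference was -0.02 with an interval of -0.58 to 0.55, and for Entpd1 0.01 with an interval of -0.22 to 0.23.

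The young libraries carry the numbers 81, 91 and 92 in both groups, and the adult libraries carry 91, 92 and 95. All comparisons with adults were fitted without these numbers. Young libraries of the same number deviated together. When the number entered the fit as a replicate block, with the 6 young libraries alone, 3 of the 10 genes passed and none was called, while 11.8% of all genes passed and 2.33% were called. P2ry6 was higher in the TOM+ library of each pair, by 0.37, 0.36 and 0.37 in log2 CPM (counts scaled to library size), and the blocked estimate was 0.37 ± 0.05 SE (adjusted p = 4.52e-05). Adora2b was higher in each pair by 0.36, 0.38 and 0.59 (0.45 ± 0.10 SE, adjusted p = 0.00257). P2ry10 was lower in each pair by small amounts (-0.15 ± 0.04 SE, adjusted p = 0.028), and it no longer passed when pair 81 or pair 91 was left out (adjusted p = 0.131 and 0.21). P2ry6 and Adora2b passed with any pair left out. In the same fit 6 of 9 macrophage markers were lower and 0 higher in TOM+ cells, and of 6 monocyte markers 2 were higher and 1 lower. The 2 higher ones, Csf1r and Ccr2, are also on the list of ESAM-low cDC2 markers. Of 7 tested B cell markers, relevant to P2ry10, 2 were lower in TOM+ cells, Fcer2a at -3.26 and Ms4a1 at -1.59 on the log2 scale (adjusted p = 3.78e-11 and 2.2e-07), and 0 were higher. Of 4 markers of ESAM-high cDC2, 3 were lower and 0 higher, and of 6 markers of ESAM-low cDC2, 3 were higher and 1 lower. Their part in these differences was not tested. Adora2a was higher in TOM+ in pairs 81 and 91 and lower in pair 92 (0.54, 0.77 and -0.57), and without pair 92 it passed at 0.67 (adjusted p = 0.0106).

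**Figure D5:**
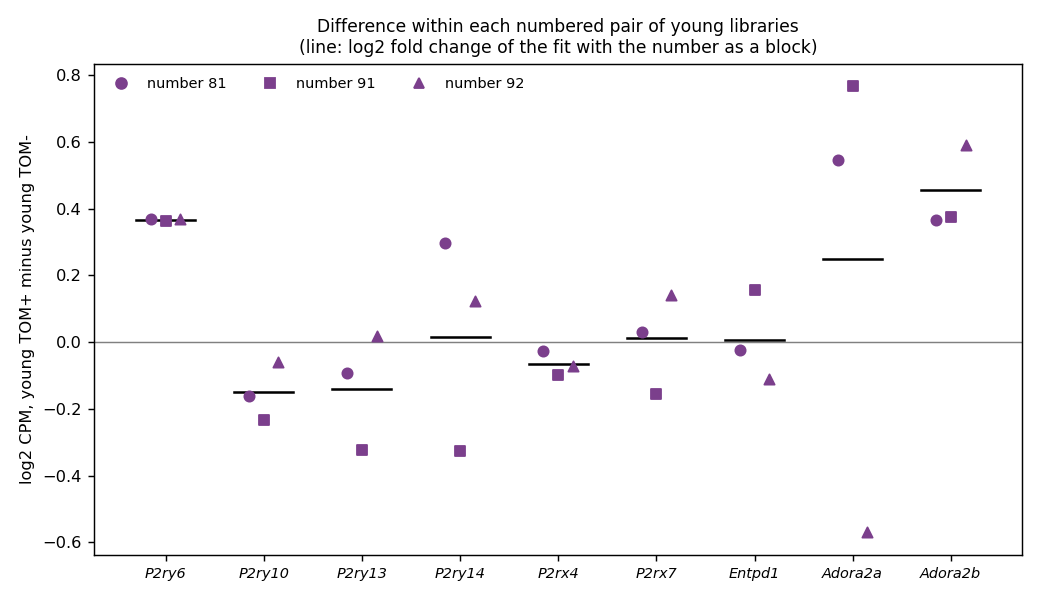
Difference in log2 CPM between the young TOM+ and the young TOM- library of each number (symbols), with the estimate of the blocked fit as a line, for the 9 genes above the count floor. The 3 pairs of P2ry6 coincide at 0.36 to 0.37, those of Adora2b are all above 0, and those of Adora2a run from -0.57 to 0.77.

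Young TOM- DC2 were also set against adult TOM+ cDC2, a comparison that differs in both age and lineage mark and uses the same 3 adult libraries as the first. Here too 8 of the 10 genes passed and 3 were called, with 36.3% and 11.3% of all genes. The called members were Adora2a (log2 difference -2.30 ± 0.24 SE, adjusted p = 1.98e-05), P2ry14 (1.88 ± 0.31 SE, adjusted p = 0.000494) and Adora2b (1.21 ± 0.24 SE, adjusted p = 0.00183). P2ry13 was at 0.94, P2ry6 at 0.55, P2ry10 at -0.82, P2rx4 at -0.57 and Entpd1 at -0.36 in the same units, all past the test. Without young TOM- replicate 2 or adult replicate 2, P2ry6, P2ry13 and Entpd1 did not pass, which left 5. P2rx7 was at -0.08 with an interval of -0.40 to 0.24.

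Of the other genes of the pathway and its neighbours, 63 were listed and 52 tested. Between young TOM+ and adult cells 30 passed, 16 higher and 14 lower in the young, and 11 were called, against 40.6% of all genes passing and 12.8% called. Over the 46 genes with neither group at the count floor the median log2 difference was -0.09, and over all 52 it was 0.20. The median over all genes tested, to which no floor was applied, was 0.05. Between young TOM- and adult cells 32 passed, 17 higher and 15 lower, against 36.3% of all genes. Between the young groups 1 passed without the block and 8 with it, 4 higher and 4 lower in TOM+ cells, against 1.6% and 11.8% of all genes.

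Among enzymes and transporters of adenosine, 9 were tested, and 4 were higher and 1 lower in young TOM+ than in adult cells. Adk, the kinase that returns adenosine to AMP, averaged 38.7 ± 3.25 TPM in young TOM+, 34.9 ± 3.33 TPM in young TOM- and 16.9 ± 1.16 TPM in adult cells (SD, n = 3), with a log2 difference of 1.10 ± 0.12 SE (adjusted p = 2e-05). Ada, which deaminates adenosine, and Pnp, the next enzyme of that route, rose by less, at 0.44 and 0.46 (adjusted p = 0.0134 and 0.00316). Dpp4, which binds adenosine deaminase at the surface of human cells, was lower by 0.55 (adjusted p = 0.000266).

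Slc28a3, a concentrative nucleoside transporter, was the gene of the list that passed between the young groups without the block. With the block Slc29a3, an equilibrative transporter of intracellular membranes, also passed (0.29 ± 0.05 SE, adjusted p = 0.000506). Slc28a3 had 169, 217 and 403 counts in young TOM- DC2, 2, 0 and 4 in young TOM+ cDC2 and 0 in each adult library. The log2 difference of young TOM+ from young TOM- cells was -6.94 with an interval of -7.90 to -5.99 (adjusted p = 2.35e-05). Against adults, young TOM- DC2 held at least 58.0-fold more, taking 3 counts a library as the floor. The part of other cell types in the Slc28a3 value was not tested.

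Of 3 tested genes of the list of NAD ectoenzymes, 2 were lower in young TOM+ than in adult cells. Cd38, which consumes extracellular NAD, averaged 3.62 ± 0.486 TPM in young TOM+, 5.16 ± 0.517 TPM in young TOM- and 11.1 ± 2.22 TPM in adult cells (SD, n = 3), 3.31-fold lower in young TOM+ than in adults (log2 difference -1.73 ± 0.18 SE, adjusted p = 1.3e-05). Art2a-ps, annotated as a polymorphic pseudogene of the ART2 family, whose active enzymes modify P2X7 with ADP-ribose in mice, was lower by 1.54 (adjusted p = 3.26e-05). Bst1, the remaining tested gene of this list, did not pass.

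Of 7 genes of the P2X7 and inflammasome list, 2 were higher and 2 lower in young TOM+ cells. Il1b averaged 3047 ± 316 TPM in young TOM+ and 6309 ± 870 TPM in adult cells (SD, n = 3; log2 difference -1.17 ± 0.15 SE, adjusted p = 6.26e-05), and Nlrp3, the sensor, was lower by 0.77 (adjusted p = 0.00186). The adaptor Pycard was higher by 0.68 (adjusted p = 0.000121) and Il18 by 0.30 (adjusted p = 0.048). Camkk2, the gene beside P2rx4, was higher by 1.13 (adjusted p = 0.000174).

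Of 8 other P2 receptors tested, 3 were higher and 1 lower in young TOM+ than in adult cells. Besides P2ry12 these were P2ry2, a receptor for ATP and UTP, at 2.23 ± 0.457 against 1.03 ± 0.346 TPM (log2 difference 0.98 ± 0.30 SE, adjusted p = 0.0202), and P2rx1, which had 2 to 6 counts in young TOM+ and 0 in adult libraries. The lower one was P2ry10b. P2ry1, an ADP receptor, had 8, 5 and 7 counts in young TOM+, 0, 0 and 1 in young TOM- and 3, 4 and 2 in adult libraries. It was called as lower in young TOM- than in adult cells (adjusted p = 0.0229) and passed as higher in TOM+ in the blocked fit of the young libraries (adjusted p = 0.0362), and no fold change is given because the young TOM- libraries were within the floor of 3 counts. Of 3 other ectonucleotidases tested, Enpp1, which releases pyrophosphate from ATP, and Enpp4 were lower (-1.61 and -0.89, adjusted p = 0.0361 and 0.00547), Enpp1 on at most 18 counts a library. The signalling list held 10 genes, with 2 higher, 4 lower and none called. In it Gna13, a G protein subunit that signals to RhoA, was lower by 0.92 (adjusted p = 5.11e-05) and Pde4b, a cAMP phosphodiesterase, by 0.87 (adjusted p = 4.37e-05).

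For the 3 called members the genes with the most similar profile were sought among the 10112 tested genes whose mean count reached 50, as Pearson's r of log2(TPM + 1) over the 9 libraries. The closest were Ccdc6, Crebl2 and H2-D1 for Adora2a (r = 0.979, 0.979 and 0.977), Mettl2, Polr2j and Polr2l for P2ry14 (0.990, 0.988 and 0.986) and Nhp2l1, Alg13 and Dbi for Adora2b (0.995, 0.992 and 0.990). These values describe 9 libraries in 3 groups that differ in age or lineage mark, and depth varied between the libraries.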

How the data were processed

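mRNA was sequenced from 9 libraries (SMART-seq v4, 3 per group), and no library was left out. Per the deposited files and the submitters' processing notes, the authors aligned reads to mm10 with STAR and deposited unstranded read counts per gene, and they deposited RSEM values as TPM, FPKM and estimated counts. The FPKM were not used, and the expected counts from RSEM were rounded for an alternative. Aligner versions are not given in the sources used here. Summary lines of the count files (4 per file) name no gene and were left out. Reads in no gene made up 26.1 to 31.6% of all reads.

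From the counts, edgeR 4.0.16 (R 4.3.3) fitted all 9 libraries in 3 groups by its quasi-likelihood test, with TMM scaling and an average count of at least 1. P-values were adjusted by Benjamini-Hochberg over 14452 genes, and a gene was called at an adjusted p under 0.05 and a log2 difference beyond 1. DESeq2 1.42.0, apeglm 1.24.0 and limma 3.58.1 gave alternatives. Simulated counts for young TOM+ against adult cells covered 14260 genes. The genes changed, 100 for each size, were drawn only from those with a mean count of at least 10. Of these edgeR called 95% of genes changed by 1.5 on the log2 scale and 96% of those changed by 3, with 7 false calls. Detection at lower counts was not simulated. The 10 genes were named in full, pathway genes where called in a comparison or to complete a list, and similar genes by rank, and pathway genes below the fold threshold were chosen after their values were seen. Members, gene lists and rules were chosen with earlier results of these data known.

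Deposit numbers of the young libraries served as pairs because deviations from the group means over 10112 genes correlated at 0.746, 0.501 and 0.517 for equal numbers. What a number stands for is not given in the sources used here. No pair of replicates agreed within sampling noise. Gene positions came from GENCODE M21 and promoters from RefSeq (GRCm38.p6). Some items are not reported here.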

Additional observations from a re-analysis of the deposited data

How the results depend on the processing

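Adora2a, P2ry14 and Adora2b kept direction and passed the test in both comparisons with adults under all 18 alternatives. Of 522 values of single members under the alternatives, 468 kept direction and side of the threshold, 16 no longer passed, 11 newly passed and 27 changed sign, none of the last having passed. With limma on log2(TPM + 1), 1122 genes were called against adults for young TOM+ and 986 for young TOM-, in place of 1853 and 1631. With limma on log2(TPM + 0.1) the median of all genes moved to 0.17 and 0.22 from 0.05 and 0.07, and calls split into 1089 higher and 809 lower, and into 1261 and 533, in place of 862 and 991, and of 940 and 691.

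Leaving out single libraries, called members numbered 3 to 5 for young TOM+ against adult cells, and members past the test 5 to 8 for young TOM- against adult cells. Between the young groups, the ratio of P2rx7 to P2rx4 differed by -0.054 to 0.064, and against adults P2rx7 ran from -0.20 to 0.071 for TOM+ and -0.18 to 0.066 for TOM-. Between the young groups, log2 differences ran from -0.39 to 0.11 for P2ry13, -0.20 to 0.29 for P2ry14, -0.18 to 0.022 for P2rx4, -0.094 to 0.093 for P2rx7, -0.036 to 0.048 for Entpd1 and -0.016 to 0.56 for Adora2a. Other sign changes there were P2rx7 at -0.0014 with RSEM counts, -0.086 and -0.092 with limma (pseudocounts 1 and 0.1), Entpd1 at -0.029 and -0.029 likewise, and P2ry14 at 0.0031 with pseudocount 0.1.

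The replicate block by deposit number raised called genes between the young groups from 170 to 341, with 337 without pair 81, 327 without pair 91 and 246 without pair 92. Members past the test numbered 3 with all pairs, 2 without pair 81 or 91 and 4 without pair 92. Under the block P2ry14 changed sign to 0.015, and to 0.20 without pair 91. Without pair 91 Entpd1 (-0.070) and Adora2a (-0.035) changed sign, and P2rx7 did so without pair 81 (-0.0035) or 92 (-0.065). Leaving out whole pairs was chosen after the data were seen. The causes of these shifts were not tested. Depth limits Nt5e most, followed by P2ry14 in adults.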
